A study of Mus musculus with 4 samples.

Results

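The 9 genes described here encode antiviral restriction factors, proteins that act inside a cell on a step of viral entry, replication or release. They were chosen by gene symbol (Mx1, Mx2, Rsad2, Cmpk2, Bst2, Ifitm2, Ifitm3, Samhd1 and Zc3hav1), and all 9 had a row, of 20308 genes in all. The choice was made with earlier results of these data known. The libraries came from microglia, the resident macrophages of the brain, isolated from mice at postnatal day 11, in a study of PD-1 and the pruning of brain vessels. Both groups hold 2 libraries. The Pd1fl/fl controls carry a Pd1 gene flanked by recombination sites, and the other libraries are labelled Pd1cKO-Cx3, for mice with that gene conditionally knocked out. The labels name neither the promoter behind "Cx3" nor a strain, and do not say whether the controls carry a Cre driver or whether each library is a separate animal, so the spread behind a p-value is that between these libraries and may be technical.

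Total counts ran from 14258420 to 15908954 per library. Pdcd1, the gene for PD-1, was counted 0 and 43 times in the controls (Pd1fl/fl replicate 1, then 2). It was counted 179 and 154 times in the Pd1cKO-Cx3-labelled libraries (replicate 2, then 3). Its level was thus not lower under the knockout label (log2 fold change 2.95 ± 1.48, SE, adjusted p = 0.695 in edgeR). Counts per gene do not show which part of the gene was read, so they cannot check the label. Every direction below is therefore between libraries as labelled. Pd1fl/fl replicate 1 held 13374 counts of Xist and 0 of Ddx3y, while each of the others held 0 of Xist and 1891 to 2064 of Ddx3y, so the control replicates differ in sex-linked genes. Without that library the median log2 fold change of the 9 genes was 1.64, against 2.0 with all 4. The 3 most abundant of 8 microglial markers were Csf1r, at 15550 to 17170 CPM (counts per 1000000 counts of the library) in the 4 libraries, P2ry12, at 14870 and 15130 CPM in the controls, against 11310 and 10690 CPM in the Pd1cKO-Cx3-labelled libraries (adjusted p = 0.0958 in edgeR), and Tmem119, at 8016 to 8423 CPM. Since these are bulk samples, fewer cells of a type and less RNA per cell cannot be told apart.

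Type I interferons bind a receptor on the cell surface and act through receptor-bound kinases on a complex of transcription factors, ISGF3, that binds a DNA site called the interferon-stimulated response element (ISRE) in the promoters of many restriction factor genes. Interferon gamma acts through another site, GAS. In microglia, as in other macrophages, such genes are expressed at a low level at rest and are induced by interferon.

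Promoter windows of 300 bases, from 250 bases before the transcription start to the first 50 bases of the transcript, were matched by symbol in a RefSeq table on GRCm38.p6 for 7 of the 9 genes, all but Mx1 and Mx2. The ISRE core was searched as GAAANNGAAA, which reads TTTCNNTTTC on the other strand, and the GAS core as TTCNNNGAA, which reads the same on both strands. Of 32851 promoter windows in the table, 1131 (3.44%) held the ISRE core and 2726 (8.3%) the GAS core. Of the 7 windows, 4 held an ISRE core and 3 a GAS core. The 4 windows with an ISRE core are shown because they let a reader set the letters beside the counts of the same genes, and the capitals mark that core.
Rsad2, chr12:26456403-26456702, minus strand: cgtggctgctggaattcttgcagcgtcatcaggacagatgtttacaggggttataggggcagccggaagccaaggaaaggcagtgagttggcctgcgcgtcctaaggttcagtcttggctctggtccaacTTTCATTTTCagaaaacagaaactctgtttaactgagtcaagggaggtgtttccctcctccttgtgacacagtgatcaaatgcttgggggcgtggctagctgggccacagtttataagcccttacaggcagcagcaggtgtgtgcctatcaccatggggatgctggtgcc
Bst2, chr8:71537423-71537722, minus strand: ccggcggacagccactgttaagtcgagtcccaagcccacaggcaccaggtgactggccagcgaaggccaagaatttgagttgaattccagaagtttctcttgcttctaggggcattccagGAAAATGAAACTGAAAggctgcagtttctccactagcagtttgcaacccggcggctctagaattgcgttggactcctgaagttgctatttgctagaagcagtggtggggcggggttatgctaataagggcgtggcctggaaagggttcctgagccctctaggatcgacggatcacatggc
Ifitm2, chr7:140955912-140956211, minus strand: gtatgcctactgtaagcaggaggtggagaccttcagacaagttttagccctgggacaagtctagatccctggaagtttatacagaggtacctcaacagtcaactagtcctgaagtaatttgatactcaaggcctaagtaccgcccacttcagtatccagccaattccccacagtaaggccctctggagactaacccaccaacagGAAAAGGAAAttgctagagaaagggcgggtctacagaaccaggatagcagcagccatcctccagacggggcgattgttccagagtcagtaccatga
Ifitm3, chr7:141010695-141010994, minus strand: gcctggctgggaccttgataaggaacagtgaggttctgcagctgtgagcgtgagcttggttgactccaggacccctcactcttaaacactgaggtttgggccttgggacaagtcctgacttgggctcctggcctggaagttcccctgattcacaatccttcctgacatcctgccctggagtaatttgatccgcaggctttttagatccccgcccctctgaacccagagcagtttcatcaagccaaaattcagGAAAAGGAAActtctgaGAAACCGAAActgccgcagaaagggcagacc
Counting the first base of the transcript as 1, the Rsad2 core lay on the other strand at positions -120 to -111. Bst2 held 2 ISRE cores that overlap each other, at -130 to -121 and -124 to -115, and a GAS core that overlaps the outer of them, at -136 to -128. Ifitm2 held its core at -46 to -37. Ifitm3 held 2 ISRE cores after its start, at 3 to 12 and 20 to 29, with a GAS core at 14 to 22 that overlaps the second. Samhd1 held a GAS core alone, at -235 to -227, and the windows of Cmpk2 and Zc3hav1 held neither. A match is a stretch of letters and was not tested for binding. The Ifitm2 core and 1 of the 2 Ifitm3 cores have the same letters, GAAAAGGAAA, before the start in Ifitm2 and after it in Ifitm3.

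**Figure D1:**
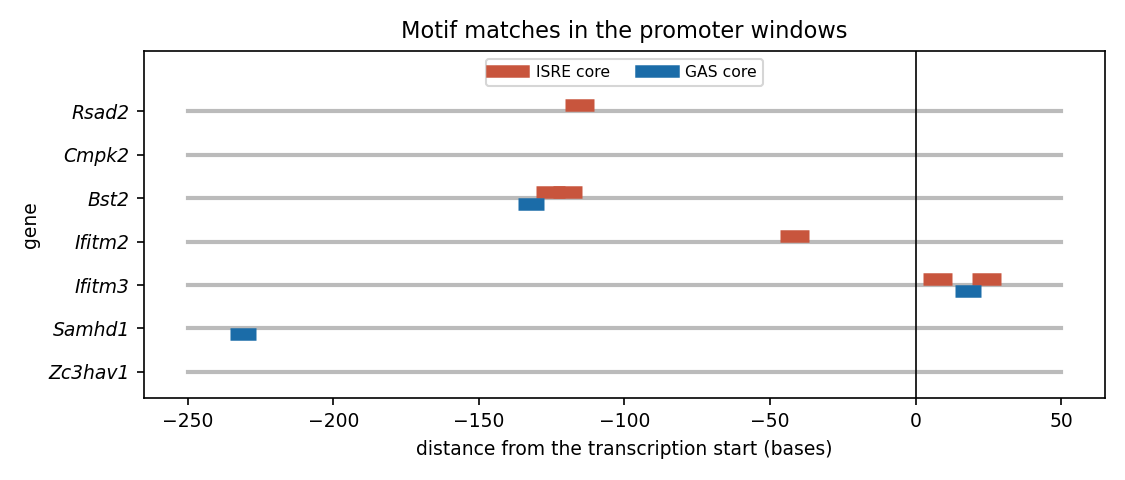
Positions of the ISRE core (red) and the GAS core (blue) along the 300-base promoter windows of the 7 genes with an entry; the horizontal axis is the distance from the transcription start in bases and the grey line is the window searched. Rsad2, Bst2 and Ifitm2 held the ISRE core before the start, Ifitm3 after it, and Cmpk2 and Zc3hav1 held neither core.

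Over the whole set, 8 of the 9 genes had both Pd1cKO-Cx3-labelled libraries above both controls in CPM. Of all 15097 genes tested, 21.3% had that order, and 18.8% had the opposite order, which 0 of the 9 had. The 9 genes differed in the size of this gap. Mx1, Rsad2, Cmpk2, Bst2 and Ifitm3 had a log2 fold change (Pd1cKO-Cx3 minus Pd1fl/fl) of 2 or more, as 3.21% of all genes did, Mx2 was just under it at 1.96, and Samhd1, Zc3hav1 and Ifitm2 were under 1, so that 6 of the 9 were at 1 or more, beside 8.74% of all genes. The median over the 9 was 2.0, beside 0.00799 over all genes tested, and 9 of 9 were above 0, as were 50.7% of all genes. Since the 9 were chosen with earlier results of these data known, these comparisons with all genes are a description.

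No member passed the test across all genes. In edgeR's quasi-likelihood test with Benjamini-Hochberg adjustment, 0 of the 9 had an adjusted p under 0.05, and 3 of 15097 genes (0.0199%) were called higher. At an unadjusted p under 0.05, 6 of the 9 were higher, beside 4.97% of all genes, and 0 were lower, beside 3.12%. DESeq2, run as an alternative on the same counts, called 5 of the 9 higher (Mx1, Rsad2, Cmpk2, Bst2 and Ifitm3), beside 1.08% of genes, and 0 lower, beside 0.327%. Without its filter on low counts, edgeR called 2 of the 9 higher, Mx1 and Rsad2, beside 0.108% of genes. With 1 library left out, edgeR called 0 of the 9 higher, beside 0.0183% and 0.0972% of genes without Pd1fl/fl replicates 1 and 2, and 0.0121% and 0.00608% without Pd1cKO-Cx3 replicates 2 and 3. Adding the 9 genes up, they took 273.1 and 298.0 CPM in the controls, against 583.6 and 875.9 CPM in the Pd1cKO-Cx3-labelled libraries, given as replicate 1 then 2 and replicate 2 then 3 here and below. Pd1cKO-Cx3 replicate 3 was the highest of the 4 libraries for 7 of the 9 genes, the exceptions being Mx2 and Ifitm2.

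**Figure D2:**
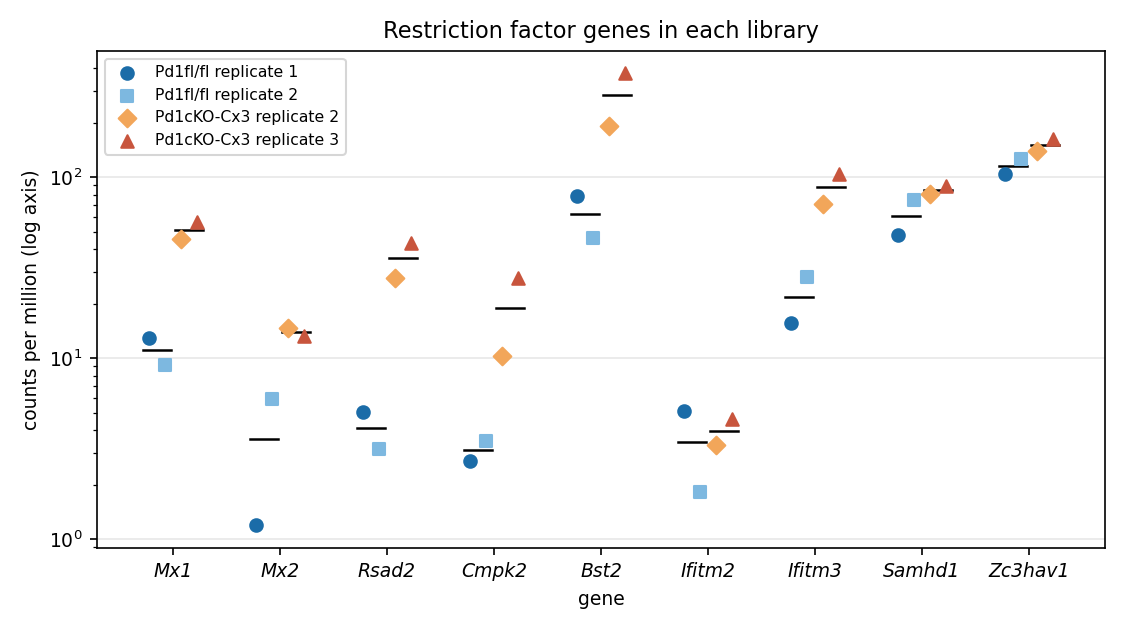
CPM of each of the 9 genes in each of the 4 libraries, on a log axis; points are single libraries and black lines are group means over 2 libraries. The 8 genes other than Ifitm2 have both Pd1cKO-Cx3 points above both Pd1fl/fl points, with the widest gap in Rsad2, where the lower Pd1cKO-Cx3 library stood 5.54-fold above the higher control.

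Mx1 and Mx2 encode dynamin-like GTPases. The mouse Mx1 protein is nuclear and blocks influenza virus, and mouse Mx2 is cytoplasmic and acts on vesicular stomatitis virus. Many laboratory mouse strains carry defective alleles of these genes, and the annotation used here lists Mx2 as a polymorphic pseudogene. Mx1 (ENSMUSG00000000386, GRCm38 chromosome 16, 97447035 to 97462907, minus strand) was at 12.95 and 9.16 CPM in the controls, from 206 and 136 counts, against 45.5 and 56.8 CPM in the Pd1cKO-Cx3-labelled libraries, from 649 and 880. The groups did not overlap, and the lower Pd1cKO-Cx3 library was 3.52 times the higher control. The group means were 11.05 ± 2.68 and 51.2 ± 7.99 CPM (SD, n = 2), which gives a log2 fold change of 2.201 ± 0.29 (SE, adjusted p = 0.167 in edgeR). With DESeq2 the adjusted p was 5.407e-07.

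Mx2 (ENSMUSG00000023341, chromosome 16, 97535308 to 97560900, plus strand) was at 1.19 and 5.92 CPM in the controls, from 19 and 88 counts, against 14.6 and 13.2 CPM in the Pd1cKO-Cx3-labelled libraries. The groups did not overlap, but the controls differed 4.96-fold from each other, the widest spread among controls of the 9 genes. The log2 fold change was 1.96 ± 0.76 (SE, adjusted p = 0.606 in edgeR), and it was 1.22 without Pd1fl/fl replicate 1 and 3.53 without Pd1fl/fl replicate 2. The Mx genes lie 72.4 kb apart. Of the 50-base stretches in their annotated transcripts, 3.91% of those of Mx1 and 4.38% of those of Mx2 occur also in another gene, for both mainly in the other Mx gene, so few reads could be shared between them.

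Rsad2 and Cmpk2 encode enzymes that act on nucleotides in sequence. CMPK2 is a mitochondrial kinase of CMP and UMP, and RSAD2, also called viperin, is a radical SAM enzyme that turns CTP into a chain terminator of viral RNA synthesis. The genes are adjacent and point away from each other, 12.8 kb apart on chromosome 12. Rsad2 (ENSMUSG00000020641, 26442746 to 26456452, minus strand) was at 5.03 and 3.16 CPM in the controls, from 80 and 47 counts, against 27.8 and 43.3 CPM in the Pd1cKO-Cx3-labelled libraries, from 397 and 671. Both Pd1cKO-Cx3 values were far above both controls. The means were 4.10 ± 1.32 and 35.6 ± 10.95 CPM (SD, n = 2), which gives a log2 fold change of 3.11 ± 0.40 (SE, adjusted p = 0.157 in edgeR and 2.599e-08 in DESeq2). This was the largest fold change of the 9 genes.

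Cmpk2 (ENSMUSG00000020638, 26469204 to 26479837, plus strand) was at 2.70 and 3.501 CPM in the controls, against 10.2 and 27.6 CPM in the Pd1cKO-Cx3-labelled libraries. The controls were close together, and the Pd1cKO-Cx3-labelled libraries differed 2.70-fold from each other while both stood above the controls. The log2 fold change was 2.60 ± 0.58 (SE, adjusted p = 0.446 in edgeR and 0.00692 in DESeq2), and 1.72 without Pd1cKO-Cx3 replicate 3. On the far side of Cmpk2 the next listed gene was Sox11, 854426 bases away. Its log2 fold change was 1.11 ± 0.46 (SE, adjusted p = 0.635 in edgeR). On the far side of Rsad2 the next listed gene had at most 6 counts.

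Samhd1 encodes an enzyme that breaks down dNTPs and so limits reverse transcription by retroviruses in myeloid cells. Samhd1 (ENSMUSG00000027639, chromosome 2, 157097533 to 157135265, minus strand) was at 48.1 and 74.4 CPM in the controls, against 80.2 and 89.7 CPM in the Pd1cKO-Cx3-labelled libraries. The groups did not overlap, but Pd1fl/fl replicate 2 was within 1.08-fold of the lower Pd1cKO-Cx3 library. The log2 fold change was 0.46 ± 0.25 (SE, adjusted p = 0.725 in edgeR), and ran from 0.18 without Pd1fl/fl replicate 1 to 0.81 without Pd1fl/fl replicate 2.

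A list of 24 other enzymes of dNTP and nucleotide metabolism had 22 tested genes, with a median log2 fold change of 0.339 (0.072 without Pd1fl/fl replicate 1). Of the 22, 8 were above both controls and 2 below both, beside 21.3% and 18.8% of all genes. edgeR called 0 of them, DESeq2 0, and 1 was higher at an unadjusted p under 0.05, beside 4.97% of all genes. The 3 with the smallest p were Rrm1, a subunit of ribonucleotide reductase, at 0.63 ± 0.21, Dut, which breaks down dUTP, at 0.81 ± 0.35, and Adal, an adenosine deaminase-like enzyme, at 0.85 ± 0.39 (log2, SE). Their edgeR adjusted p-values were 0.542, 0.649 and 0.666. For viperin, 12 genes of iron-sulphur cluster assembly and of its binding proteins had a median of 0.0215, with 4 of 12 above both controls (21.3% of all genes), and edgeR, DESeq2 and the unadjusted test called 0 of them. Iscu, the scaffold of cluster assembly, was at 0.37 ± 0.19, Nubp2 at 0.20 ± 0.13, and Ciao2b, a targeting factor, at -0.50 ± 0.36 (log2, SE, adjusted p = 0.719, 0.778 and 0.810 in edgeR).

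Bst2, Ifitm2 and Ifitm3 encode membrane proteins. BST2, or tetherin, holds budding virus particles on the cell surface, and IFITM proteins hinder the fusion of viruses with endosomal and plasma membranes. Bst2 (ENSMUSG00000046718, chromosome 8, 71534255 to 71537456, minus strand) was at 78.6 and 46.4 CPM in the controls, from 1251 and 689 counts, against 192.0 and 374.4 CPM in the Pd1cKO-Cx3-labelled libraries, from 2738 and 5798. The groups did not overlap, and Pd1cKO-Cx3 replicate 3 was 1.95 times replicate 2. The means were 62.5 ± 22.8 and 283.2 ± 128.9 CPM (SD, n = 2), which gives a log2 fold change of 2.17 ± 0.40 (SE, adjusted p = 0.337 in edgeR and 0.0256 in DESeq2). In mice BST2 is also a surface marker of plasmacytoid dendritic cells, and 6 markers of that cell type were tested. Of these, Siglech, Irf8 and Tcf4, which microglia express too, made up most of the summed level, which was 3184.0 to 3243.0 CPM in the controls and 3083.0 to 3233.0 CPM in the Pd1cKO-Cx3-labelled libraries. Of the 6, 2 were above both controls and 3 below both, beside 21.3% and 18.8% of all genes. Among the less abundant markers, Bcl11a was at 15.5 and 6.13 CPM in the controls, against 3.72 and 2.45 CPM in the Pd1cKO-Cx3-labelled libraries. Ccr9 had 19 and 25 counts in the controls, against 8 and 0. It passed the low-count filter through the controls alone, so no median is given for this list. Cox6a2 had 28 and 7 counts in the controls, against 26 and 12. Spib, which was not tested, had 20 counts in Pd1cKO-Cx3 replicate 3 and 0 in both controls. It was not listed for Pd1cKO-Cx3 replicate 2, where its count was 4 or fewer and was set to 0. All of these less abundant markers were named after their values were seen.

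Ifitm3 (ENSMUSG00000025492, chromosome 7, 141009586 to 141010770, minus strand) was at 15.6 and 27.9 CPM in the controls, from 248 and 415 counts, against 70.8 and 104.5 CPM in the Pd1cKO-Cx3-labelled libraries, from 1010 and 1618. The groups did not overlap. The log2 fold change was 2.00 ± 0.36 (SE, adjusted p = 0.323 in edgeR and 8.038e-07 in DESeq2). Ifitm2 (ENSMUSG00000060591, chromosome 7, 140954837 to 140955987, minus strand), 53.6 kb away, behaved otherwise, with 5.09 and 1.82 CPM in the controls and 3.30 and 4.58 CPM in the Pd1cKO-Cx3-labelled libraries. Here the groups overlapped, and the highest and the lowest values were both controls. The log2 fold change was 0.18 ± 0.75 (SE, adjusted p = 0.986 in edgeR), and it changed sign, to -0.38 without Pd1fl/fl replicate 2 and to -0.07 without Pd1cKO-Cx3 replicate 3. The difference between the fold changes of Ifitm3 and Ifitm2 was not tested. Ifitm2 rests on 27 to 81 counts, and 294 of its 606 stretches of 50 bases (48.5%) also occur in other genes (Gm45717, Gm11951 and Gm8865), against 63 of 629 for Ifitm3, so its counts are uncertain. Of these other genes, Gm45717 overlaps Ifitm2 itself on the same strand, with 268 exonic bases shared, and had no row. The part of the 294 stretches that lies in this overlap was not counted.

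The rest of the IFITM cluster was hardly counted. Ifitm1, between the IFITM genes described, had 9, 0, 12 and 6 counts in the 4 libraries, controls first. Ifitm5 and Ifitm6, the outer neighbours, had at most 12 counts, and none of these was tested. Of a list of 10 family members and partners of IFITM proteins, 6 were tested, with a median log2 fold change of 0.0647 and 2 of 6 above both controls (21.3% of all genes). edgeR and DESeq2 called 0 of the 6, and 1 was higher at an unadjusted p under 0.05, beside 4.97% of all genes. Nedd4, a ubiquitin ligase of IFITM3, was at 14.02 and 14.9 CPM in the controls, against 33.5 and 31.1 CPM in the Pd1cKO-Cx3-labelled libraries, a log2 fold change of 1.15 ± 0.25 (SE, adjusted p = 0.438 in edgeR). Vcp was at 0.30 ± 0.15 and Ifitm10 at -0.72 ± 0.35 (log2, SE, adjusted p = 0.685 and 0.682 in edgeR). For tetherin, 10 genes of its traffic and turnover had a median of 0.109, with 3 of 10 above both controls (21.3% of all genes). edgeR and DESeq2 called 0 of the 10, and 3 were higher at an unadjusted p under 0.05, beside 4.97% of all genes. These were March8, a ubiquitin ligase of tetherin, at 0.85 ± 0.29, the sorting protein gene Pacs1 at 0.86 ± 0.24, and Pdcd6ip, an ESCRT partner, at 0.39 ± 0.12 (log2, SE, adjusted p = 0.542, 0.527 and 0.542 in edgeR).

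Zc3hav1 encodes ZAP, a zinc finger protein that binds viral RNA rich in CpG and directs it to decay, with TRIM25 and KHNYN as cofactors. Zc3hav1 (ENSMUSG00000029826, chromosome 6, 38305286 to 38354603, minus strand) was at 103.7 and 125.7 CPM in the controls, against 139.0 and 161.7 CPM in the Pd1cKO-Cx3-labelled libraries. The groups did not overlap, with the lower Pd1cKO-Cx3 library 1.11 times the higher control. The log2 fold change was 0.38 ± 0.17 (SE, adjusted p = 0.649 in edgeR). Its neighbour and relative Zc3hav1l had 57 and 161 counts in the controls, against 38 and 5 under the Pd1cKO-Cx3 label, a log2 fold change of -2.28 ± 1.12 (SE, adjusted p = 0.688 in edgeR). The 17 cofactors and RNA decay genes tested had a median of -0.0161, with 6 of 17 above both controls and 3 of 17 below both, beside 21.3% and 18.8% of all genes. edgeR and DESeq2 called 0 of them, and 2 were higher at an unadjusted p under 0.05, beside 4.97% of all genes. Parp12 and Parp14, ADP-ribosyltransferases related to ZAP, were at 0.87 ± 0.31 and 0.59 ± 0.20, and Dcp1a, a decapping factor, was at -0.36 ± 0.17 (log2, SE, adjusted p = 0.559, 0.542 and 0.673 in edgeR).

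**Figure D3:**
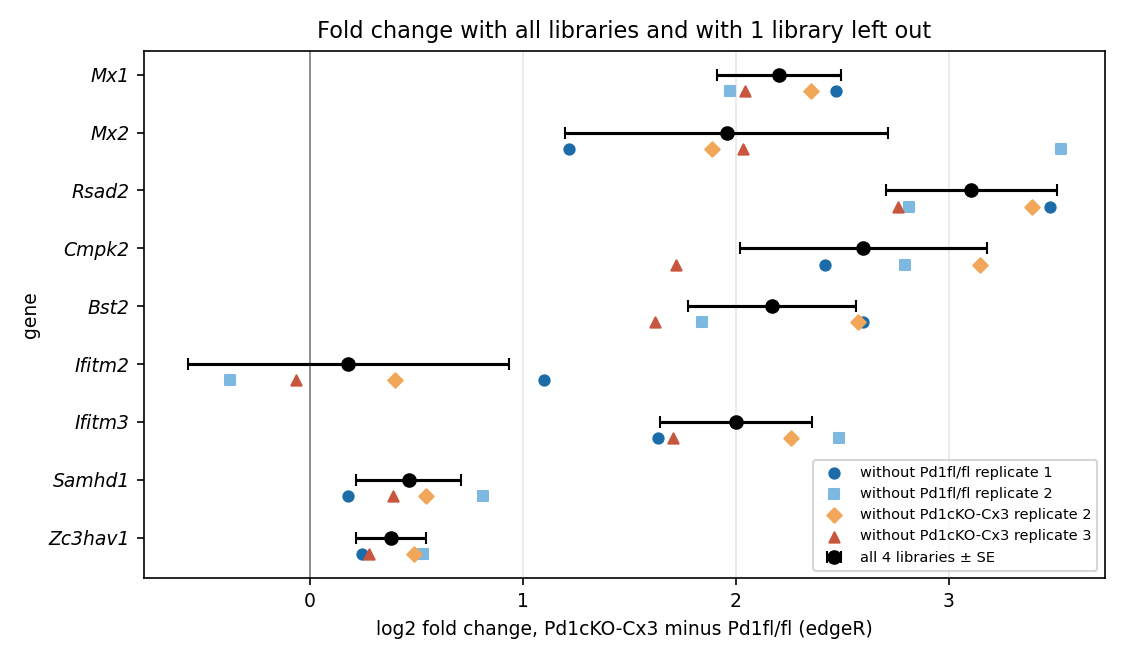
Log2 fold change of each of the 9 genes, Pd1cKO-Cx3 minus Pd1fl/fl, from edgeR; black points with bars are all 4 libraries ± SE and coloured points leave out 1 library. The fold change of Mx2 ran from 1.22 to 3.53 and that of Ifitm2 from -0.38 to 1.10 over the libraries left out, and the other 7 genes stayed above 0.

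Levels were compared between genes as CPM per kilobase of coding length. In the controls, Bst2 had the highest level, with a mean of 121.1, followed by Ifitm3 at 52.9, Zc3hav1 at 36.9, Samhd1 at 29.6, Ifitm2 at 7.997, Mx1 at 5.87, Rsad2 at 3.61, Cmpk2 at 2.31 and Mx2 at 1.81 CPM per kb. In this order the single-library values of Ifitm3 and Zc3hav1, of Zc3hav1 and Samhd1, of Ifitm2 and Mx1, and of Cmpk2 and Mx2 overlapped. In the Pd1cKO-Cx3-labelled libraries the means were 548.8 for Bst2, 213.3 for Ifitm3, 48.4 for Zc3hav1, 41.1 for Samhd1, 31.3 for Rsad2, 27.2 for Mx1, 14.1 for Cmpk2, 9.12 for Ifitm2 and 7.06 CPM per kb for Mx2. Here the values of Rsad2 and Mx1 overlapped, as did those of Cmpk2 and Ifitm2. Rsad2 was at rank 7 of 9 in the controls and rank 5 in the Pd1cKO-Cx3-labelled libraries, while Ifitm2 was at ranks 5 and 8. In the controls, however, the values of Ifitm2 and Rsad2 overlapped, as did those of Rsad2 and Mx2, so these control ranks are not resolved. Per kilobase of exonic length, which includes untranslated regions, Bst2, Ifitm3 and Zc3hav1 led in both groups as well, but Mx1 (13.5) was above Samhd1 (9.29) in the Pd1cKO-Cx3-labelled libraries.

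To place the shape of the 9 genes over the 4 libraries, log2(CPM + 1) was centred on each gene's mean. The median profile of the 9 was -0.83 and -0.68 in the controls, against 0.59 and 1.22 in the Pd1cKO-Cx3-labelled libraries. Ifitm3 and Mx1 lay nearest to it among the 9, with summed absolute differences of 0.832 and 0.933, and Ifitm2 (2.83) and Zc3hav1 (2.53) farthest. The other genes compared were 9485 tested genes with a mean of at least 5 CPM. Predicted genes, with symbols of Gm and digits or ending in Rik, were left out. Of the 9485, the nearest were Gnb4 (0.385), Xaf1 (0.422), Samd9l (0.438), Rtp4 (0.457) and Phf11d (0.465). Gnb4, a G protein beta subunit gene, was at 4.90, 6.60, 18.5 and 28.9 CPM in the 4 libraries in that order. Xaf1, an apoptosis-associated gene, was at 23.4, 22.8, 60.0 and 83.2 CPM, and Rtp4, a transmembrane protein gene, at 57.6, 78.5, 171.0 and 259.3 CPM. Their log2 fold changes ran from 1.598 for Samd9l to 2.03 for Gnb4, with edgeR adjusted p-values from 0.211 to 0.358. This likeness rests on 4 libraries and was used to choose these genes, so it is a description.

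**Figure D4:**
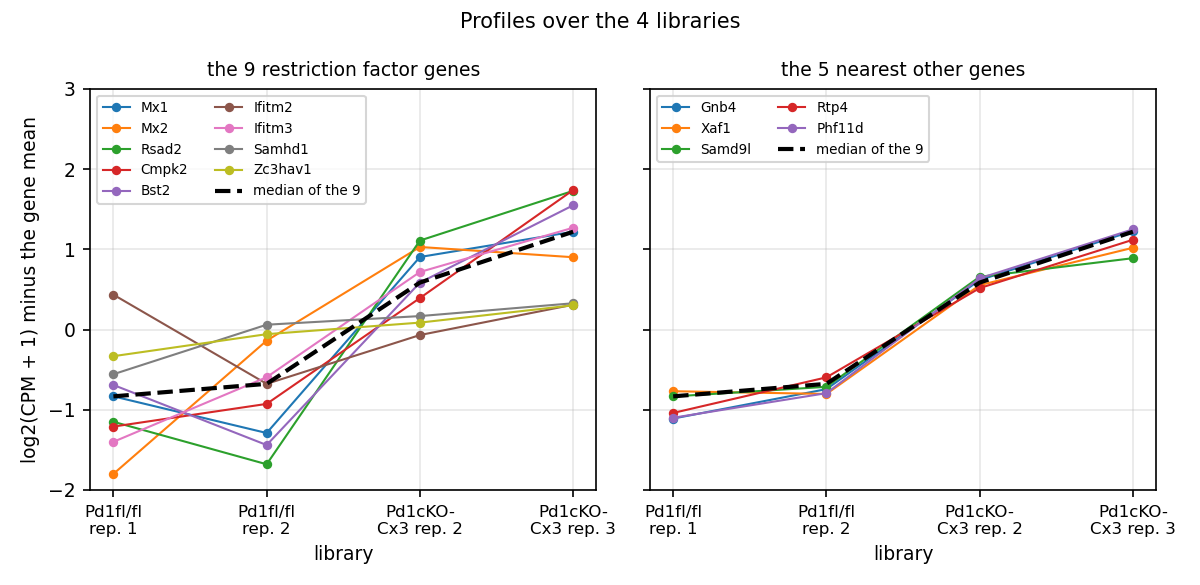
Centred log2(CPM + 1) over the 4 libraries for the 9 restriction factor genes (left) and for the 5 genes nearest to their median profile (right). The 5 were taken from the 9485 other genes compared, and the dashed line is the median of the 9. Samhd1 and Zc3hav1 are flatter than the median, Ifitm2 starts high in Pd1fl/fl replicate 1, and the 5 nearest genes follow the dashed line with summed differences of 0.385 to 0.465.

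Upstream of these genes, the interferon receptor subunits Ifnar1 and Ifnar2 were at 126.8 to 136.3 and 113.5 to 126.7 CPM, and the groups overlapped for both. Of 21 genes for interferons listed, Ifnk and Ifnz had a row, with at most 11 counts in a library and no test, and the other 19 were not analysed here. Of 16 genes from the receptors to ISGF3, 8 were above both controls and 4 below both, beside 21.3% and 18.8% of all genes, with a median log2 fold change of 0.167. edgeR called 0 of the 16, DESeq2 called 5 higher (1.08% of all genes), and 5 were higher at an unadjusted p under 0.05 (4.97% of all genes). Irf7, a transcription factor that amplifies interferon production, was at 6.41 and 10.9 CPM in the controls, against 39.8 and 57.3 CPM in the Pd1cKO-Cx3-labelled libraries (log2 2.48 ± 0.37, SE, adjusted p = 0.225 in edgeR). Usp18, which curbs receptor signalling, was at 8.42 and 14.3 CPM in the controls, against 39.8 and 57.3 CPM in the Pd1cKO-Cx3-labelled libraries (log2 2.09 ± 0.36, SE, adjusted p = 0.312 in edgeR).

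Of 29 other antiviral effector genes, 26 were tested, with a median log2 fold change of 0.67. Of the 26, 19 were above both controls and 1 below both, beside 21.3% and 18.8% of all genes. This list was written with earlier results of these data known, so the shares serve as a description. edgeR called 0, DESeq2 called 7 higher (1.08% of all genes), and 13 were higher and 1 lower at an unadjusted p under 0.05 (4.97% and 3.12% of all genes). Ly6e, a membrane protein gene that limits coronavirus entry, was at 813.2 and 826.4 CPM in the controls, against 1353.0 and 1342.0 CPM in the Pd1cKO-Cx3-labelled libraries, a log2 fold change of 0.71 ± 0.08 (SE, adjusted p = 0.0958 in edgeR). Slfn5 and Slfn2, of the Schlafen family, were at 1.78 ± 0.22 and 0.97 ± 0.18 (log2, SE, adjusted p = 0.148 and 0.358 in edgeR). The median of the 9 restriction factors, 2.0, stood above the median of each of these lists, a difference that was not tested. March8 stands both in this list and with the tetherin partners, and Trim25 both here and with the ZAP cofactors.

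**Figure D5:**
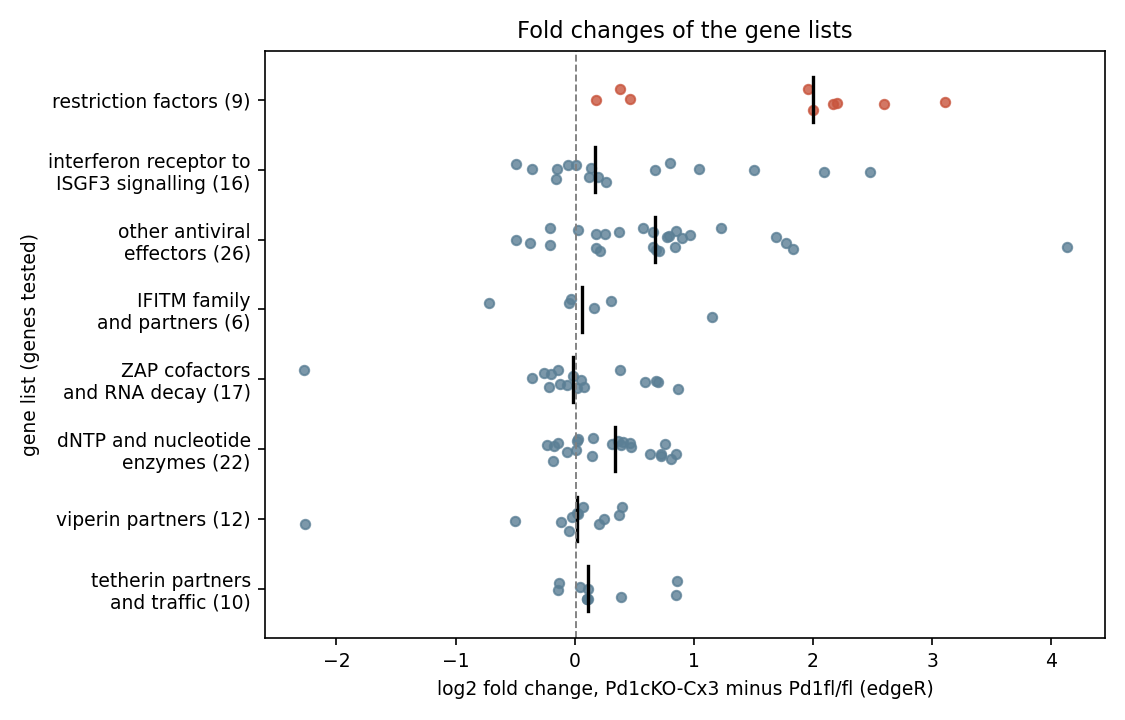
Log2 fold change, Pd1cKO-Cx3 minus Pd1fl/fl, of every tested gene in the restriction factor set (red) and in 7 other lists (blue), with the number tested in brackets; black bars are list medians and the dashed line is the median of all 15097 genes tested. The restriction factors have a median of 2.0 and the other lists medians between -0.0161 and 0.67.

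Of the 14 distinct genes lying next to the 9 on either side, 5 were tested. Of these, 2 were above both controls, Sox11, which lies 854426 bases from Cmpk2, and Mvb12a, beside 21.3% of all genes. Mvb12a, an ESCRT gene 5465 bases from Bst2, was at a log2 fold change of 0.52 ± 0.24 (SE, adjusted p = 0.673 in edgeR). Rbl1, next to Samhd1, was at 0.38 ± 0.34 and Ttc26, next to Zc3hav1, at 0.42 ± 0.91 (log2, SE, adjusted p = 0.861 and 0.969 in edgeR). The neighbours of Mx1, Mx2, Ifitm2 and Ifitm3 had at most 13 counts in a library and were not tested.

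Marker lists of other cells also differed between the labels, some higher and some not. Of 10 border-associated macrophage markers, 9 were tested, 9 of 9 had a log2 fold change above 0 and 7 of 9 were above both controls (50.7% and 21.3% of all genes), with a median of 1.3. DESeq2 called 4 of the 9 higher, beside 1.08% of all genes. Their summed level was 1248.0 to 1287.0 CPM in the controls and 1443.0 to 1553.0 CPM in the Pd1cKO-Cx3-labelled libraries. The most abundant, Stab1 and Mrc1, were at 0.01 and 0.07 (log2 fold change). F13a1, the next by mean CPM, was at 1.34 ± 0.24 (log2, SE, adjusted p = 0.323 in edgeR). Of 9 tested mural and fibroblast markers, 8 had a log2 fold change above 0, beside 50.7% of all genes. The list summed to 48.1 to 82.3 CPM in the controls and 182.8 to 184.6 CPM in the Pd1cKO-Cx3-labelled libraries. Kcnj8 had 0 counts in both controls and 135 in Pd1cKO-Cx3 replicate 2. It was not listed for Pd1cKO-Cx3 replicate 3, where its count was 4 or fewer and was set to 0. Notch3, which was among those tested, had 0 counts in both controls, against 19 and 121. Notch3 was thus tested only through its counts under the Pd1cKO-Cx3 label, so no median is given for this list. Of 12 endothelial markers, 10 had a log2 fold change above 0, beside 50.7% of all genes, and the list summed to 74.8 to 105.5 and 123.3 to 162.1 CPM. Among the 10 was Tie1, with 0 and 6 counts in the controls, against 162 and 64. It too was tested only through the Pd1cKO-Cx3 label, and no median is given. Of 8 tested monocyte and neutrophil markers, 1 was above both controls and 3 below both, beside 21.3% and 18.8% of all genes. Among the 3 was Retnlg, with 13 and 15 counts in the controls, against 3 and 2. Retnlg was tested only through its counts in the controls, so no median is given for this list. Their sum was 43.2 to 61.9 and 89.9 to 102.5 CPM, but most of it in the Pd1cKO-Cx3-labelled libraries was Plac8, at 16.9 and 17.3 CPM in the controls, against 71.1 and 67.3 CPM. Lymphocyte markers summed to 67.2 to 87.6 and 63.1 to 82.2 CPM, of which Cd79b made up most. Cd4 and Ms4a1 had 0 counts in both controls, against 56 and 17 for Cd4 and 28 and 29 for Ms4a1, and Cd79a had 0 and 2, against 26 and 26, so no median is given for a list whose members were tested through their counts under a single label. Astrocyte, neuron and oligodendrocyte lineage markers had medians of -0.0375, 0.704 and 0.865, and overlapped between the groups in their summed level, except that neuron markers summed to 27.3 to 32.9 and 33.5 to 55.5 CPM. The 8 microglial markers had a median of -0.152, with 4 of 8 below both controls (18.8% of all genes) and 3 called lower by DESeq2 (0.327% of all genes). Their sum was 58470 to 60050 CPM in the controls and 43980 to 46530 CPM in the Pd1cKO-Cx3-labelled libraries, with no overlap. Of these, Cx3cr1 fell by 1.29 ± 0.07 and Fcrls fell by 0.87 ± 0.06 on the log2 scale (SE, edgeR adjusted p = 0.0251 and 0.0369), both named after their values were seen. The part of these cell types in the restriction factor counts was not tested.

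The authors' deposited tables compare each library labelled Pd1cKO-Cx3 with each control on its own, and mark a gene with an absolute log2 fold change over 1 at p under 0.05. The authors' deposited tables marked 6, 6, 6 and 7 of the 9 genes as higher, in Pd1cKO-Cx3 replicate 2 against Pd1fl/fl replicates 1 and 2 and in Pd1cKO-Cx3 replicate 3 against Pd1fl/fl replicates 1 and 2. In the same order, 18.9%, 17.2%, 18.3% and 16.6% of the genes of a table carried that mark. Mx1, Mx2, Rsad2, Cmpk2, Bst2 and Ifitm3 were marked in 4 of the authors' 4 deposited tables, Ifitm2 in 1, and Samhd1 and Zc3hav1 in 0. Each of these pairs compares 2 libraries and not the conditions, and the pairs share libraries. In the authors' deposited tables the log2 fold change of Rsad2 ran from 2.47 to 3.78, that of Bst2 from 1.29 to 3.01, and that of Ifitm2 from -0.63 to 1.33.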

How the data were processed

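RNA from 4 microglia libraries was compared between 2 Pd1fl/fl and 2 Pd1cKO-Cx3 libraries. The authors deposited 4 tables, each joining 1 library of either genotype. The deposited count columns hold whole numbers for each Ensembl gene, per the file headers. HTSeq 0.6.0, TopHat2 2.0.12, Bowtie2 2.2.3 and the build mm9 stand in the submitters' processing notes, which do not say whether counting used strand. Of 20276 gene identifiers, 18668 (92.1%) matched their GRCm38 position in GENCODE M21, so coordinates are taken as GRCm38. In the CPM columns the authors deposited, a count of 0 was entered as 0.5, and these columns were not used for tests. The deposited ratio (fold change), log2 fold change and p-value columns, per the file headers, compare the libraries of a table, by a test that no source used here names.

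Each library's counts were taken once and were the same in both of its tables (0 conflicts). Where both tables of a library lacked a gene, its count (4 or fewer by the listing rule) was set to 0, in 3158 of 20308 genes and none of the 9. For 22 genes, symbols that a spreadsheet had made into dates were restored. The total count per library was 14258420 to 15908954. CPM here are relative to that total, and SDs are over 2 libraries.

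All genes were tested with edgeR 4.0.16 in R 4.3.3 (TMM factors, filterByExpr, quasi-likelihood test, Benjamini-Hochberg adjustment at 0.05, 15097 genes). The scripts were tested on simulated data. For a single value, an exact permutation test of 2 against 2 libraries cannot go below p = 0.333 (two-sided), so none is given. Alternatives were relative log expression and upper-quartile factors, no low-count filter, DESeq2 1.42.0, and leaving out each library. Lists are described by counts and medians, with no test.

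The 9 genes and the lists were chosen with earlier results of these data known. Genes named are the 9, Pdcd1, the 3 tested genes of each list with the smallest edgeR p, the 5 genes nearest in profile, the neighbours, and up to 3 markers per cell type by mean CPM; others were chosen with their values in view. A gene that this rule names is not reported here. Gene lengths are unions of GENCODE M21 exons or coding exons. A planned comparison of protein sequences was not run.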

Additional observations from a re-analysis of the deposited data

How the results depend on the processing

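Of 72 values of the 9 genes under 8 alternatives, 70 kept their direction. Ifitm2 reversed, at -0.38 without Pd1fl/fl replicate 2 and -0.07 without Pd1cKO-Cx3 replicate 3, with 1.10 without Pd1fl/fl replicate 1. DESeq2 called 5 of the 9 genes higher, beside 1.08% of genes. Without the low-count filter edgeR called 2, Mx1 (adjusted p = 0.0442) and Rsad2 (0.0391), beside 0.108% of genes. With 1 library left out, edgeR called 0 of the 9, where the group left with 1 library is assumed to vary like the other. The median of the 9 ran from 1.64 (without Pd1fl/fl replicate 1) to 2.26 (without Pd1cKO-Cx3 replicate 2) with 1 library left out, and was 1.98 without Pd1fl/fl replicate 2 and 1.70 without Pd1cKO-Cx3 replicate 3.

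Over all genes, the 3 called higher became 169 with DESeq2, 22 without the filter, and, with 1 library left out, between 1 (Pd1cKO-Cx3 replicate 3) and 16 (Pd1fl/fl replicate 2). The 3 called lower became 51 with DESeq2, 10 without the filter, and 2 to 5 with 1 library left out. The median of the IFITM partners reversed to -0.088 without Pd1cKO-Cx3 replicate 3 (range to 0.136). That of the ZAP cofactors reversed to 0.031 and 0.033 without Pd1cKO-Cx3 replicates 2 and 3 and 0.070 without Pd1fl/fl replicate 2 (range from -0.180). That of the viperin partners reversed to -0.0048 with upper-quartile factors and -0.071 without Pd1fl/fl replicate 1 (range to 0.157). The cause was not tested. Another 9 of 56 list medians moved with their direction kept, among them that of the dNTP enzymes (0.072 without Pd1fl/fl replicate 1), the receptor to ISGF3 genes (0.31 without Pd1cKO-Cx3 replicate 2) and the tetherin partners (0.25 without Pd1cKO-Cx3 replicate 2 and 0.24 without Pd1fl/fl replicate 2). No paired analysis was possible because the groups share only replicate number 2 in the labels. Ifitm2, Mx2 and Cmpk2, with 19 to 88 counts in the controls, had the widest SEs of the 9 genes, 0.58 to 0.76. Rsad2, with 80 and 47 counts in the controls, had an SE of 0.40.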
